A study of Mus musculus with 28 samples.

Results

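CXC chemokines are small secreted attractant proteins named for the spacing of their first conserved cysteines. The 7 genes described here, Cxcl1, Cxcl2, Cxcl3, Cxcl9, Cxcl10, Cxcl11 and Cxcl16, were chosen by name as CXC ligands of activated macrophages, out of 54532 genes in the count table. They were followed by bulk RNA sequencing in murine bone marrow-derived macrophages (BMDMs) that were left with PBS as control or exposed to 10 µg/ml of plasma-derived von Willebrand factor (VWF) or 100 ng/ml of lipopolysaccharide (LPS) for 3.5 h or 16 h. Each time had 5 cultures with PBS, 5 with VWF and 4 with LPS, which the labels call biological replicates. Per the study's cell culture methods, the cells came from bone marrow of C57/B6JB mice aged 8 to 12 weeks. They were differentiated for 7 days with M-CSF. A younger age range is given for all murine experiments in the study's ethics statement. The labels of all 28 cultures, controls included, give fresh medium with 1 mM CaCl2. The VWF was purified from human plasma, so a human protein was given to mouse cells.

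Cxcl1, Cxcl2 and Cxcl3 carry the ELR motif and bind CXCR2, the receptor through which they draw neutrophils, and their genes are known targets of NF-κB. Cxcl9, Cxcl10 and Cxcl11 bind CXCR3 on activated T and NK cells and are induced by interferons through STAT and IRF factors, with Cxcl10 also responding to NF-κB. Cxcl16 is made as a transmembrane protein that binds CXCR6, takes up oxidised lipoprotein, and is released when ADAM10 or ADAM17 cuts it.

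In the mouse genome (GRCm38, GENCODE M21) the ELR genes lie together on the plus strand of chromosome 5, with Cxcl3 at chr5:90786103-90789600, Cxcl1 at chr5:90891241-90893115 and Cxcl2 at chr5:90903871-90905938. The CXCR3 ligand genes form a second group on the minus strand of that chromosome, with Cxcl9 at chr5:92321347-92328079, Cxcl10 at chr5:92346638-92348889 and Cxcl11 at chr5:92359544-92365485. Cxcl16 lies alone on chromosome 11 at chr11:70453983-70459984, on the minus strand. Cxcl11 is annotated as a polymorphic pseudogene, so its reads stand for a transcript and not for a protein. Over 300 aligned coding bases Cxcl2 and Cxcl3 were 89.67% identical, yet only 3.05% of the 100-base windows of Cxcl2 and 1.88% of those of Cxcl3 also occurred in the other gene, and no such window was shared by the other members. An annotated gene on the opposite strand covered 41.7% of the exon bases of Cxcl11 (Gm2673), 18.3% of those of Cxcl16 (Zmynd15) and 5.91% of those of Cxcl10 (Art3). The strand setting of the counting is not given in the sources used here. Reads within these overlaps therefore cannot be assigned to the member or to its opposite-strand partner.

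The upstream sequences are shown because the 3 ELR ligands and the 3 CXCR3 ligands are described as groups. The promoter table of RefSeq (GRCm38.p6) held 5 of the 7 genes. The 250 bases before the RefSeq start are given below from 5′ to 3′ on the gene's own strand, with matches to the κB consensus and to the interferon-stimulated response element (ISRE) core (GAAA, any 2 bases, GAAA) in capitals. They are chr5:90890995-90891244 for Cxcl1, chr5:90903649-90903898 for Cxcl2, chr5:90785851-90786100 for Cxcl3, chr5:92348890-92349139 for Cxcl10 and chr5:92328080-92328329 for Cxcl9.
Cxcl1: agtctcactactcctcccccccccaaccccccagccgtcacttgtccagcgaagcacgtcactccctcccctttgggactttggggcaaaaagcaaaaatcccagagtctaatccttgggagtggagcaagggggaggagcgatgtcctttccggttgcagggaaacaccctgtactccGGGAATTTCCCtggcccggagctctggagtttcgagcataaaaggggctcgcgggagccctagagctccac
Cxcl2: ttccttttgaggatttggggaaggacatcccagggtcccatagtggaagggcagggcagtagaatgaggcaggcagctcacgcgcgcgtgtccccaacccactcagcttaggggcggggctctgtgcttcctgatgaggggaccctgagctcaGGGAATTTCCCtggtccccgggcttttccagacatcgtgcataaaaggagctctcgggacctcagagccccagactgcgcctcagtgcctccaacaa
Cxcl3: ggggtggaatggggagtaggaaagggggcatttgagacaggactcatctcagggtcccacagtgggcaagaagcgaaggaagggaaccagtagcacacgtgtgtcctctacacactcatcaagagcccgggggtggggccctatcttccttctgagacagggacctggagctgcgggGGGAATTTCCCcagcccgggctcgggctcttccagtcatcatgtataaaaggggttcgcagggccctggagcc
Cxcl10: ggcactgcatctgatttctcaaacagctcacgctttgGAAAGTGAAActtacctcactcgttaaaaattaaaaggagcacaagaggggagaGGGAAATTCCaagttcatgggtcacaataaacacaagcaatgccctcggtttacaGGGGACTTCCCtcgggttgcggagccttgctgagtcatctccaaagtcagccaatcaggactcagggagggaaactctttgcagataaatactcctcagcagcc
Cxcl9: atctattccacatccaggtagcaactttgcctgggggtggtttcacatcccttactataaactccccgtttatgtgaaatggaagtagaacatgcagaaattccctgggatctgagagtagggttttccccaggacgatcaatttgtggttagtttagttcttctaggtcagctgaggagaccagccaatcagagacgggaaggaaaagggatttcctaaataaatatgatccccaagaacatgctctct

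The same run of letters, GGGAATTTCCC, stood in all 3 ELR genes, where it matched the κB consensus on both strands and so gave 2 overlapping matches. Counted back from the start, the plus-strand match ended at base -62 in Cxcl1, -88 in Cxcl2 and -64 in Cxcl3. Cxcl10 held 4 matches to the κB consensus, 3 of which overlap each other, and 1 ISRE core, GAAAGTGAAA, which ended at base -204. No full match to either motif was found in the Cxcl9 window, and the gamma-activated site TTCNNNGAA was found in none of the 5. Both strands were searched, and no match of one motif overlapped a match of another. Among 32851 mouse promoters of the same length 7.25% held the κB consensus, 2.98% the ISRE core and 7.02% the gamma-activated site. The box TATAAA, not capitalised, was found in Cxcl3 and Cxcl9 and in 12.4% of all promoters. A match describes the letters and not a bound site.

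The libraries held between 41131209 and 77699206 counts (median 52986574), and replicate libraries differed by more than counting noise. Expression is given as CPM, counts scaled to library size and by TMM factors, which lay between 0.745 and 1.25. A gene was tested where at least 1 culture of the comparison reached 10 TPM (counts scaled to gene length and to the library's sum over all genes, without TMM factors), and was called at an adjusted p below 0.05 with a log2 fold change beyond 1 in either direction. All adjusted p values are from edgeR's quasi-likelihood test with Benjamini-Hochberg adjustment over all genes tested. Each SE was derived from that test, as the absolute log2 fold change divided by the square root of its F statistic. The 7 macrophage markers examined were all expressed, and their summed level was 8613 to 13590 CPM in controls at 3.5 h, 9846 to 13260 CPM with VWF and 7122 to 12730 CPM with LPS. It was 18170 to 26950 CPM with VWF at 16 h, against 4430 to 15670 CPM in controls and 6388 to 12260 CPM with LPS. Neutrophil markers summed to at most 33.8 CPM in any culture, with Ly6g at 0 counts in 4 of the 6 groups. No T cell, NK cell or B cell marker reached 10 TPM. The 3 dendritic cell markers summed to at most 1.68 CPM in controls, to between 13.8 and 20.6 CPM with VWF at 3.5 h and to at least 13.2 CPM in every LPS-treated culture, most of it Xcr1. Endothelial markers reached 52.2 to 78.4 CPM with LPS at 16 h, most of it Kdr, and fibroblast markers lay between 16.3 and 409 CPM in widely spread cultures of all groups. The part of these cell types in the results was not tested. In bulk samples, a change in the number of expressing cells and a change in RNA per cell cannot be told apart.

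**Figure D1:**
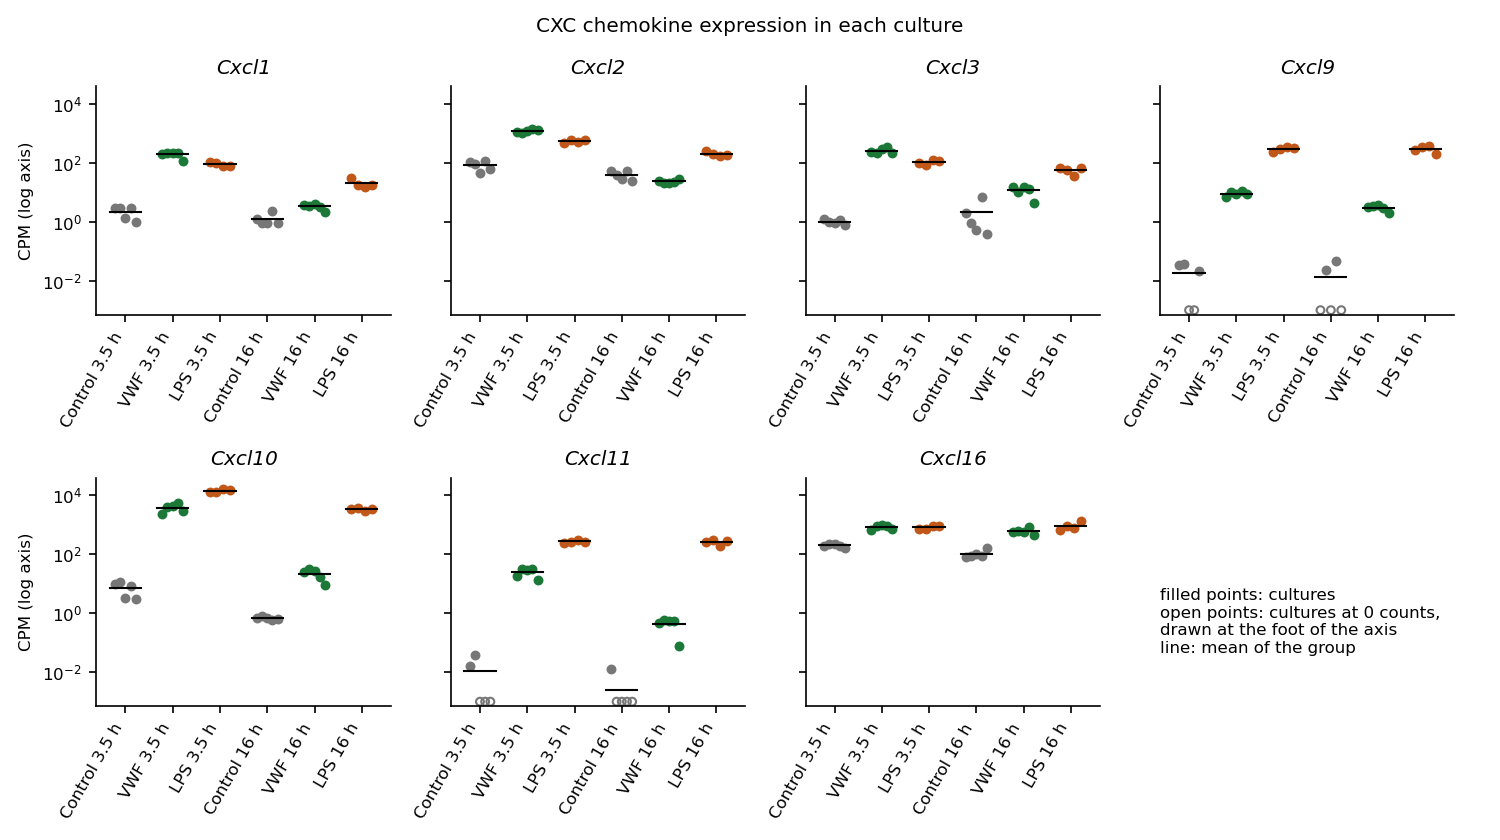
Expression of the 7 CXC chemokines in each of the 28 cultures, in CPM on a log axis, by group. Points are cultures, open points at the foot of the axis are cultures with 0 counts, and lines are group means. Cxcl1, Cxcl2 and Cxcl3 were highest with VWF at 3.5 h, Cxcl9, Cxcl10 and Cxcl11 were highest with LPS, and Cxcl16 lay within one range in all 4 treated groups.

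The first question was how VWF and LPS each changed the CXC chemokines at 3.5 h, and whether both did so alike. Cxcl2, Cxcl10 and Cxcl16 reached 10 TPM in at least 1 control culture and were called higher with VWF and with LPS, where 9.1% of 8200 genes were called higher with VWF and 12.8% of 8190 with LPS. Cxcl1, Cxcl3 and Cxcl11 with VWF, and these and Cxcl9 with LPS, were called higher too but entered the test only through the treated cultures, so that their being tested depended on their being high there, and a count over the members tested supports nothing. Without any filter on low values, 7 of 7 members were called higher with each agent. In those fits 1393 genes in all were called higher with VWF and 2141 with LPS. Against LPS, VWF gave higher levels of the 3 ELR ligands and lower levels of the 3 CXCR3 ligands, of which Cxcl9 was tested through its LPS cultures alone, while 4.71% of 7500 genes were called higher and 6.71% lower in that comparison. Cxcl16 was not called different. No test by receptor group was made, and Cxcl5, an ELR ligand outside the 7, was lower with VWF than with LPS in mean level (0.626 and 4.75 CPM) and too low to be tested.

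Cxcl1, a neutrophil attractant also known as KC, stood at 2.87, 2.99, 1.35, 2.87 and 0.992 CPM in the control cultures at 3.5 h. With VWF it reached 196, 218, 217, 214 and 114 CPM. With LPS it was 106, 94.2, 75.9 and 80.5 CPM. Every VWF-treated culture was above every LPS-treated one, although replicate 5 with VWF lay close to the highest LPS culture, and no control came near either. The log2 fold change was 6.33 (SE 0.36, adjusted p = 7.66e-08) for VWF against control and 5.27 (SE 0.33, adjusted p = 1.08e-07) for LPS against control. VWF exceeded LPS by 1.08 (SE 0.19, adjusted p = 0.00106) on the log2 scale, close to the threshold of 1. Without LPS replicate 3 the difference was 1.00 when rounded and fell just under that threshold (adjusted p = 0.00501).

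Cxcl2, known as MIP-2, was the ELR ligand with the highest level per length in every group. Controls at 3.5 h had 103, 92.3, 43.7, 115 and 59.4 CPM of it. VWF-treated cultures had 1098, 1033, 1215, 1356 and 1283 CPM. LPS-treated cultures had 470, 592, 516 and 567 CPM. The 3 groups did not overlap, and the lowest VWF culture was well above the highest LPS culture. VWF raised Cxcl2 by 3.76 (SE 0.27, adjusted p = 4.59e-07) and LPS by 2.65 (SE 0.27, adjusted p = 5.68e-06) on the log2 scale. The log2 difference of VWF from LPS was 1.14 (SE 0.11, adjusted p = 1.31e-05).

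Cxcl3, the nearest relative of Cxcl2, was almost silent in controls at 3.5 h, with 1.19, 0.977, 0.934, 1.15 and 0.744 CPM. It rose to 229, 217, 282, 336 and 215 CPM with VWF. LPS-treated cultures held 95.1, 87.0, 120.2 and 113 CPM. Here too all VWF cultures were above all LPS cultures. Its log2 fold change was 7.90 (SE 0.20, adjusted p = 6.16e-10) with VWF, 6.63 (SE 0.16, adjusted p = 1.6e-10) with LPS, and 1.29 (SE 0.14, adjusted p = 3.6e-05) for VWF against LPS.

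Cxcl9, the CXCR3 ligand known as MIG, was close to absent in controls at 3.5 h, with 2, 2, 0, 0 and 1 counts. VWF-treated cultures had 6.71, 10.3, 8.46, 10.8 and 8.38 CPM. LPS-treated cultures had 239, 294, 338 and 308 CPM. The groups were far apart, with the highest VWF culture far below the lowest LPS culture. Controls held 5 counts in all. The fold over control is therefore a ratio of summed counts, each divided by the summed TMM-scaled library sizes of its group. Its exact 95% interval is that of the control count and covers counting error only. The ratio was 531-fold (interval 228 to 1636) for VWF and 17790-fold (7622 to 54780) for LPS. Cxcl9 did not reach 10 TPM in any VWF or control culture and so was not tested for VWF against control. VWF against LPS gave a log2 fold change of -5.06 (SE 0.15, adjusted p = 2.9e-08).

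Cxcl10, known as IP-10, was by level per length the most abundant of the 7 members in all treated cultures at 3.5 h. Control cultures had 9.69, 11.03, 3.35, 8.07 and 3.10 CPM. With VWF they had 2284, 3928, 4336, 5362 and 3011 CPM. With LPS they had 12811, 13161, 16672 and 14621 CPM. The lowest LPS culture was well above the highest VWF culture, and no control came near either. The log2 fold change over control was 8.96 (SE 0.51, adjusted p = 8.04e-08) with VWF and 10.92 (SE 0.51, adjusted p = 9.76e-09) with LPS, and VWF lay below LPS by a log2 fold change of -1.94 (SE 0.21, adjusted p = 2.65e-05).

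Cxcl11, known as I-TAC, had 1, 2, 0, 0 and 0 counts in the controls at 3.5 h. VWF-treated cultures had 17.9, 31.4, 28.8, 31.3 and 13.7 CPM. LPS-treated cultures had 247, 265, 310.0 and 265 CPM. With 3 control counts in all, the ratio of VWF to control was 2336 with a counting interval of 799 to 11330, and that of LPS to control was 27370 with an interval of 9364 to 132700. VWF against LPS gave a log2 fold change of -3.49 (SE 0.23, adjusted p = 1.17e-06), again with no overlap between the groups.

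Cxcl16 had the highest mean TPM of the 7 in controls, and its cultures were at 183, 227, 231, 188 and 166 CPM. VWF brought it to 652, 881, 1011, 901 and 691 CPM. LPS brought it to 742, 730.1, 915 and 899 CPM. Both treated groups were above all controls and overlapped each other in CPM. The log2 fold changes were 1.97 (SE 0.13, adjusted p = 2.77e-07) for VWF and 2.00 (SE 0.12, adjusted p = 7.32e-08) for LPS. Their difference was -0.01 (SE 0.13, adjusted p = 0.969), the smallest of the 7, and its sign turned to 0.29 (adjusted p = 0.03) when libraries were scaled by total count alone. Zmynd15, which overlaps Cxcl16 on the other strand, was also called higher with VWF (log2 fold change 1.45, SE 0.17, adjusted p = 3.13e-05) and with LPS (1.18, SE 0.17, adjusted p = 9.94e-05), and its part in the Cxcl16 counts was not tested.

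**Figure D2:**
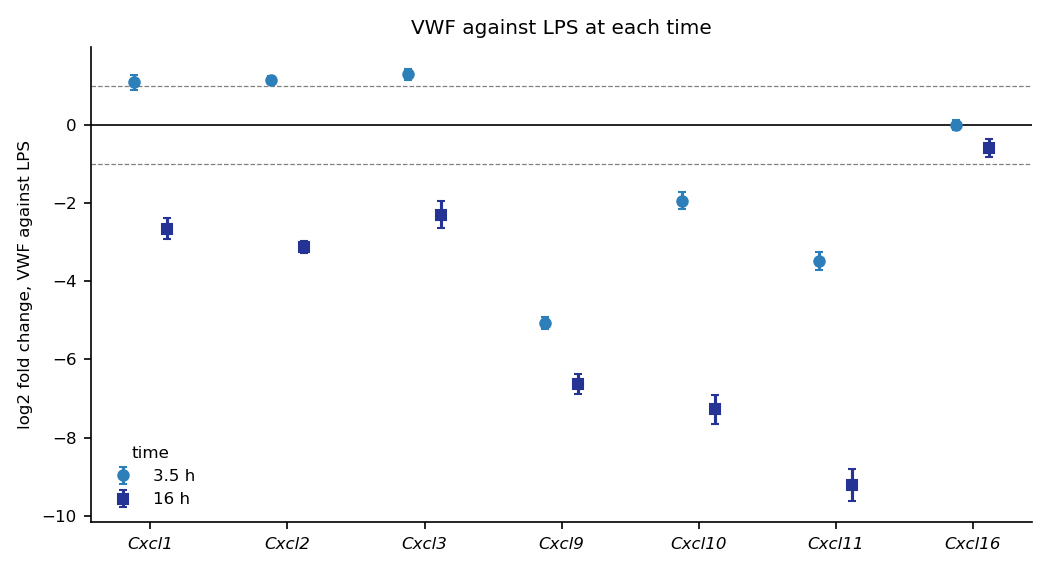
Log2 fold change of VWF against LPS for each CXC chemokine at 3.5 h (circles) and 16 h (squares). Bars give the SE derived from the edgeR test, and dashed lines the threshold of 1 in either direction. At 3.5 h Cxcl1, Cxcl2 and Cxcl3 lay above 0 and Cxcl9, Cxcl10 and Cxcl11 below it; at 16 h all of these 6 lay below -2, and Cxcl16 stayed inside the dashed lines at both times.

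The next question was how far the induction lasted. At 16 h Cxcl16 was called higher with VWF than in controls and Cxcl2 was not called, both with control cultures above 10 TPM, and 4.55% of 7798 genes were called higher. Cxcl3 and Cxcl10 were also called higher but were tested only through their VWF cultures, while Cxcl1, Cxcl9 and Cxcl11 were under 10 TPM in all control and VWF cultures and were not tested. Without a filter 5 of 7 were called higher with VWF, where 647 genes in all were called higher. LPS gave higher calls for Cxcl2 and Cxcl16, where 15.3% of 7994 genes were called higher. The other 5 members were called higher too but were tested only through their LPS cultures. With LPS and no filter 7 of 7 were called higher, where 2299 genes in all were called higher. VWF against LPS at 16 h gave 6 members lower and none higher, with 14.5% of 7574 genes called lower; Cxcl1, Cxcl9 and Cxcl11 were tested through their LPS cultures alone. From 3.5 h to 16 h, 5 of 6 tested members fell in VWF-treated cultures (12.2% of 7927 genes called lower), of which Cxcl1 and Cxcl11 were tested through the cultures at 3.5 h alone, and 3 of 7 fell in LPS-treated cultures (13.5% of 6987 genes called lower).

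Cxcl1 at 16 h was 1.24, 0.910, 0.906, 2.23 and 0.917 CPM in controls. It was 3.67, 3.42, 3.85, 3.23 and 2.21 CPM with VWF. LPS-treated cultures had 31.3, 17.0, 14.7 and 17.2 CPM. VWF replicate 5 lay just under the highest control and the other 4 VWF cultures above it, and the LPS cultures were clear of both groups. Cxcl1 fell by 5.82 (SE 0.23, adjusted p = 4.84e-09) on the log2 scale between 3.5 h and 16 h with VWF and by 2.08 (SE 0.27, adjusted p = 0.000178) with LPS. At 16 h its log2 fold change for VWF against LPS was -2.65 (SE 0.27, adjusted p = 1.77e-05), and that for LPS against control was 3.99 (SE 0.37, adjusted p = 1.45e-05).

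Cxcl2 at 16 h was 52.6, 38.4, 27.0, 50.6 and 23.6 CPM in controls. VWF-treated cultures had 24.0, 21.3, 21.2, 22.9 and 27.3 CPM. LPS-treated cultures had 242, 204, 170.4 and 181 CPM. The VWF cultures sat at the lower end of the control range and overlapped it, with a log2 fold change of -0.83 (SE 0.22, adjusted p = 0.0172) that passed the p threshold but not the fold threshold. In VWF-treated cultures Cxcl2 fell by 5.63 (SE 0.12, adjusted p = 1.65e-10) with time, to a level below that of untreated cells at 3.5 h in every culture. The LPS cultures stayed 2.35 (SE 0.26, adjusted p = 4.3e-05) above control on the log2 scale, and VWF against LPS was -3.13 (SE 0.14, adjusted p = 1.07e-07).

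Cxcl3 at 16 h was 2.04, 0.887, 0.527, 6.69 and 0.388 CPM in controls, with replicate 4 apart from the other 4. It was 14.9, 9.95, 15.6, 13.3 and 4.46 CPM with VWF. LPS-treated cultures had 64.8, 55.1, 35.0 and 68.2 CPM. VWF replicate 5 was below control replicate 4, so those groups overlapped. The log2 fold change of VWF over control was 2.35 (SE 0.75, adjusted p = 0.0392), and the call was lost in 7 of 10 fits that left out 1 culture. Without control replicate 4 the log2 fold change was 3.48 (SE 0.57, adjusted p = 0.00189). Cxcl3 fell by 4.40 (SE 0.32, adjusted p = 3.78e-07) with time under VWF, and by 0.82 (SE 0.21, adjusted p = 0.00954) under LPS, which is short of the fold threshold although the LPS groups of the 2 times did not overlap.

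The CXCR3 ligands were all lower with VWF than with LPS. Cxcl9 at 16 h was 3.10, 3.45, 3.62, 2.90 and 1.93 CPM with VWF. With LPS it was 267, 345, 358 and 198 CPM, a range that holds all of the LPS values at 3.5 h. Controls had 0, 2, 0, 3 and 0 counts, so VWF was 214-fold above control with a counting interval of 91.6 to 658. Its log2 fold change between the LPS times was 0.05 (SE 0.17, adjusted p = 0.831) and for VWF against LPS at 16 h it was -6.62 (SE 0.25, adjusted p = 4e-08).

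Controls at 16 h had 0.675, 0.831, 0.708, 0.572 and 0.635 CPM of Cxcl10, all below the lowest control at 3.5 h. VWF-treated cultures had 25.8, 31.6, 26.4, 16.4 and 9.10 CPM. LPS-treated cultures had 3306, 3689, 2894 and 3375 CPM, which is inside the range of the VWF cultures at 3.5 h. Even the lowest VWF culture was above all controls, and the log2 fold change over control was 4.88 (SE 0.34, adjusted p = 3.5e-06). With time Cxcl10 fell by 7.38 (SE 0.41, adjusted p = 4.9e-08) under VWF, by 2.04 (SE 0.12, adjusted p = 2.14e-06) under LPS and by 3.32 (SE 0.40, adjusted p = 0.000163) in controls. VWF against LPS at 16 h was -7.28 (SE 0.38, adjusted p = 2.4e-07).

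Cxcl11 at 16 h was down to 0.455, 0.583, 0.533, 0.545 and 0.0750 CPM with VWF, the last from 4 counts. LPS-treated cultures held 264, 299, 191 and 281 CPM, overlapping the LPS cultures at 3.5 h. A single count was found among the 5 controls, and the ratio of VWF to control was 159 with a counting interval of 28.6 to 6285. In VWF-treated cultures Cxcl11 fell by 5.72 (SE 0.41, adjusted p = 3.3e-07) with time. VWF against LPS at 16 h gave -9.20 (SE 0.41, adjusted p = 9.02e-08) on the log2 scale, the widest gap among the members at either time.

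Cxcl16 was still high in both treated groups. Its levels at 16 h were 82.9, 85.8, 100.2, 90.3 and 161 CPM in controls. VWF-treated cultures had 570.4, 619.8, 575, 846 and 455 CPM. LPS-treated cultures had 676, 902, 748 and 1296 CPM. Both treated groups overlapped each other and were clear of the controls. Its log2 fold change over control was 2.45 (SE 0.23, adjusted p = 2.64e-05) with VWF and 3.08 (SE 0.28, adjusted p = 1.36e-05) with LPS. From 3.5 h to 16 h it was -0.38 (SE 0.17, adjusted p = 0.0654) with VWF, 0.21 (SE 0.20, adjusted p = 0.391) with LPS and -0.87 (SE 0.20, adjusted p = 0.00659) in controls, none of them called. VWF against LPS at 16 h was -0.59 (SE 0.23, adjusted p = 0.0466), short of the fold threshold.

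**Figure D3:**
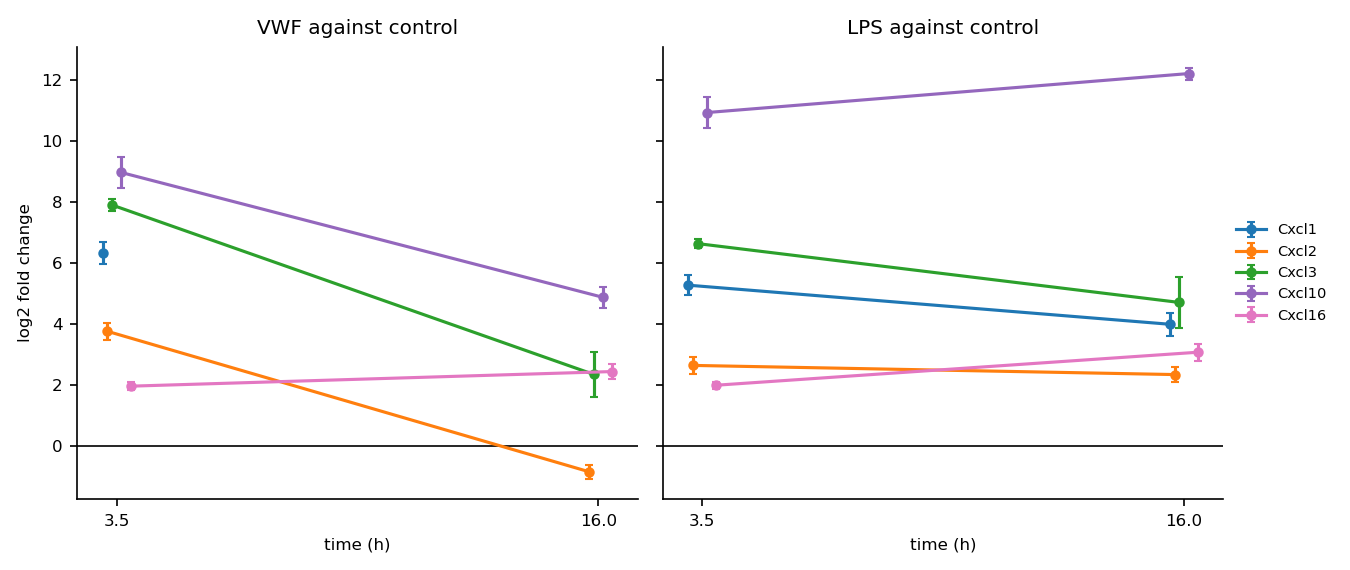
Log2 fold change over control at 3.5 h and 16 h for VWF (left) and LPS (right), with bars for the SE. Cxcl9 and Cxcl11 are left out because their controls held 5 counts or fewer, and Cxcl1 with VWF at 16 h was under the expression filter. With VWF Cxcl2, Cxcl3 and Cxcl10 dropped between the times while Cxcl16 went from 1.97 to 2.45; with LPS all 5 genes stayed above 2 except Cxcl16 at 3.5 h, at 2.00.

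In untreated cells 2 of 3 tested members fell from 3.5 h to 16 h, where 5.09% of 8333 genes were called lower. These were Cxcl10, given above and tested through 3.5 h alone, and Cxcl2 with a log2 fold change of -1.07 (SE 0.31, adjusted p = 0.0202). The 2 control groups overlapped for Cxcl2, and 4 of 10 fits that left out 1 culture lost its call. Whether the effect of each agent changed with time was tested as an interaction of treatment and time. For VWF 4 of 6 tested members had a lower effect at 16 h than at 3.5 h, where 7.77% of 8660 genes did. Of the 6, Cxcl1 and Cxcl11 were tested through the VWF cultures at 3.5 h alone, and Cxcl3 through VWF cultures alone. A count over the members tested therefore supports nothing. The change on the log2 scale was -5.01 for Cxcl1 (SE 0.44, adjusted p = 3.94e-08), -4.56 for Cxcl2 (SE 0.36, adjusted p = 7.65e-09), -5.50 for Cxcl3 (SE 0.78, adjusted p = 1.52e-05) and -4.05 for Cxcl10 (SE 0.54, adjusted p = 6.29e-06). Cxcl11, with its near-empty controls, had a change of -4.45 with an SE of 3.10 (adjusted p = 0.316), and Cxcl16 one of 0.51 (SE 0.27, adjusted p = 0.179).

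For LPS 3 of 7 members passed, in both directions, where 12.8% of 8748 genes were called lower and 13.5% higher. Cxcl1, Cxcl3, Cxcl9 and Cxcl11 were tested through their LPS cultures alone, so this count supports nothing. The effect of LPS fell by 1.27 (SE 0.49, adjusted p = 0.042) for Cxcl1, a call that was lost in 10 of 18 fits that left out 1 culture. It was larger at 16 h by 1.28 (SE 0.43, adjusted p = 0.0213) for Cxcl10, whose controls fell more than its LPS cultures, and by 1.09 (SE 0.31, adjusted p = 0.00705) for Cxcl16. The difference of VWF from LPS moved lower with time in 6 of 7 members, where 14.3% of 8217 genes were called lower. Cxcl9 was tested through its LPS cultures alone, and at 16 h Cxcl1 and Cxcl11 reached 10 TPM with LPS only. That count therefore supports nothing either. The change was -4.29 for Cxcl2 (SE 0.18, adjusted p = 1.41e-11), -3.75 for Cxcl1 (SE 0.34, adjusted p = 1.08e-07) and -3.60 for Cxcl3 (SE 0.40, adjusted p = 1.15e-06), the genes whose difference turned from higher to lower. For Cxcl10 it was -5.35 (SE 0.41, adjusted p = 1.55e-08), for Cxcl11 -5.73 (SE 0.43, adjusted p = 1.03e-08) and for Cxcl9 -1.58 (SE 0.25, adjusted p = 5.4e-05). Cxcl16, at -0.60 (SE 0.27, adjusted p = 0.074), did not pass.

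Levels of different genes were compared per length, in TPM. The summed TPM of Cxcl1, Cxcl2 and Cxcl3 was 139.5 ± 58.2 in controls, 2013 ± 200.2 with VWF and 675 ± 82.4 with LPS at 3.5 h (SD, n = 5, 5 and 4). At 16 h it was 63.0 ± 27.2, 44.8 ± 4.68 and 259 ± 63.7 TPM. Cxcl2 made up 96.4% ± 0.75 of it in controls at 3.5 h but 76.7% ± 3.90 with VWF and 76.9% ± 2.73 with LPS. At 16 h its share was 94.1% ± 3.03 in controls, 69.2% ± 8.90 with VWF and 78.6% ± 3.06 with LPS. The remaining share in treated cultures was Cxcl1 and Cxcl3.

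The summed TPM of the CXCR3 ligands was 10.5 ± 5.51 in controls, 4408 ± 973 with VWF and 13000 ± 1050 with LPS at 3.5 h. It was 0.962 ± 0.216, 29.7 ± 12.4 and 3419 ± 390 TPM at 16 h. Cxcl10 made up 99.4% ± 0.096 with VWF and 97.4% ± 0.13 with LPS at 3.5 h, and 89.0% ± 2.47 and 89.9% ± 1.31 at 16 h. Cxcl16 was at 217 ± 21.3 TPM in controls, 722 ± 50.9 with VWF and 541 ± 33.6 with LPS at 3.5 h. In TPM, which lacks the TMM scaling, the VWF cultures (671 to 787) lay above the LPS cultures (498 to 571), whereas in TMM-scaled CPM they overlapped. Differences between groups in TPM are therefore given as levels only, and the tests are those on counts with TMM factors.

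**Figure D4:**
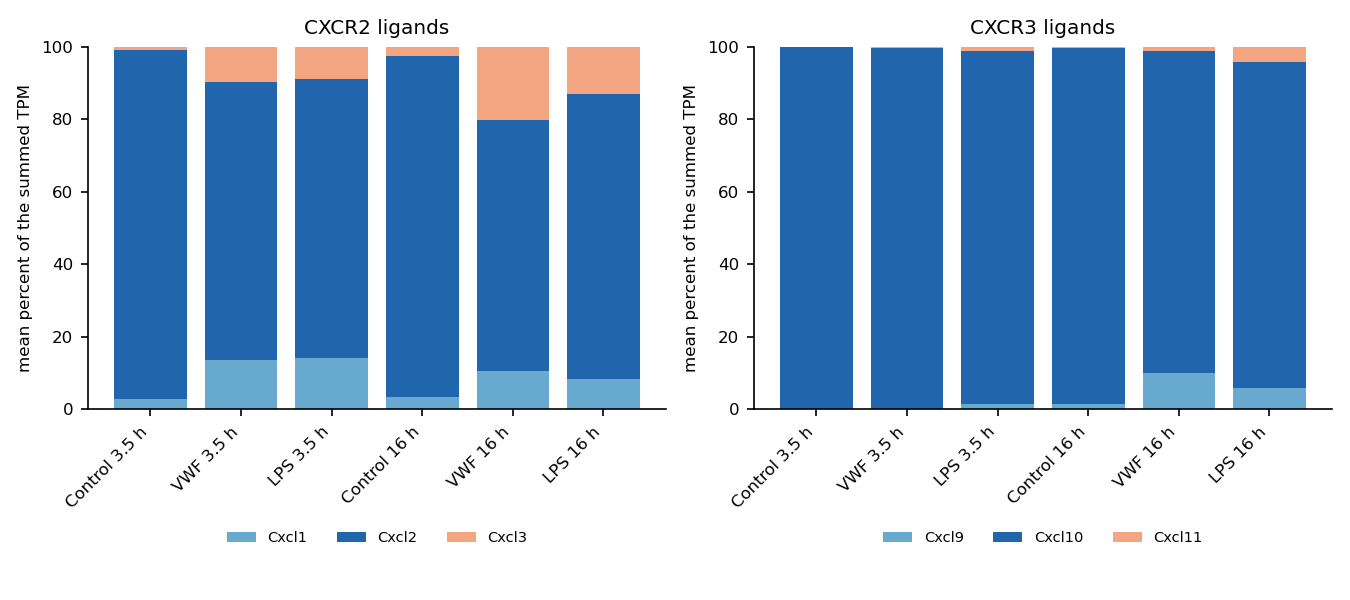
Mean share of each gene in the summed TPM of the CXCR2 ligands (left) and the CXCR3 ligands (right), by group. Cxcl2 leads the CXCR2 ligands in all groups, from 69.2% with VWF at 16 h to 96.4% in controls at 3.5 h, and Cxcl10 makes up at least 89.0% of the CXCR3 ligands.

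Other CXC ligand genes were examined from a list of 8. Of these, 4 were tested at 3.5 h, and none was called higher with VWF or LPS. Over all genes tested, 9.1% of 8200 were called higher with VWF and 12.8% of 8190 with LPS. No call among 4 genes is near those shares and is no result about these ligands. Pf4, a platelet and macrophage ligand, had 620 ± 220.0 CPM in controls and 945 ± 271 CPM with VWF at 3.5 h, with a log2 fold change of 0.52 (SE 0.28, adjusted p = 0.163). Cxcl14, a ligand of resting tissue, was 79.1 to 124 CPM in controls, 28.3 to 35.2 CPM with VWF and 34.0 to 37.9 CPM with LPS. It fell by 1.71 (SE 0.11, adjusted p = 2.6e-07) with VWF and by 1.56 (SE 0.12, adjusted p = 4.22e-07) with LPS on the log2 scale. Cxcl5, a further ELR ligand, stayed under the filter and did not share the order of the 3 ELR members, with 4.75 ± 1.15 CPM with LPS and 0.626 ± 0.369 CPM with VWF at 3.5 h.

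The receptors of these ligands were mostly absent or low. Of 8 receptor genes, Cxcr3 and Cxcr4 were the only ones tested against control at either time. Cxcr2 averaged at most 0.284 CPM and Cxcr6 at most 1.37 CPM in any group. Cxcr3, which binds Cxcl9, Cxcl10 and Cxcl11, averaged 4.74 CPM in controls, 4.46 with VWF and 3.53 with LPS at 3.5 h. At 16 h these means were 6.36, 4.00 and 2.42 CPM. Cxcr3 reached 10 TPM in control cultures alone, and was called lower with LPS at 16 h. Cxcr4, the receptor for Cxcl12, was 164 ± 16.3 CPM in controls, 36.1 ± 8.46 CPM with VWF and 9.24 ± 2.61 CPM with LPS at 3.5 h. Its log2 fold change was -2.26 (SE 0.16, adjusted p = 4.41e-07) with VWF and -4.18 (SE 0.20, adjusted p = 1.44e-08) with LPS.

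Among enzymes that process these ligands, Adam17 rose with VWF at 3.5 h from 179 ± 24.0 to 408 ± 47.0 CPM (log2 fold change 1.10, SE 0.11, adjusted p = 5.67e-06), and Mmp9, which trims ELR ligands, from 5.85 ± 0.844 to 14.1 ± 1.91 CPM (1.19, SE 0.13, adjusted p = 1.61e-05). Mmp9 was tested only through its VWF cultures. With VWF at 16 h it stood at 49.6 ± 17.6 CPM. Adam10, the other sheddase of Cxcl16, was not called in any comparison with control. Of 14 regulators listed for NF-κB, STAT and IRF control, 13 were higher with VWF and 14 with LPS at 3.5 h. Among all genes tested, 9.1% of 8200 were called higher with VWF and 12.8% of 8190 with LPS. The list was chosen with earlier results of these data known, and Ifnb1 was tested only through treated cultures.

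At 3.5 h 5 of these 14 were lower with VWF than with LPS, and none was higher. Of 7500 genes tested, 6.71% were called lower and 4.71% higher. They were the interferon genes and factors Ifnb1 (-5.42, SE 0.30, adjusted p = 4.72e-07), Irf8 (-3.26, SE 0.16, adjusted p = 1.73e-07), Irf1 (-2.03, SE 0.12, adjusted p = 7.38e-07) and Irf7 (-1.74, SE 0.15, adjusted p = 5.56e-06), and Zfp36, which promotes decay of chemokine mRNA (-1.08, SE 0.09, adjusted p = 6.34e-06), all as log2 fold changes. Ifnb1 averaged 4.15 ± 1.45 CPM with VWF and 173 ± 47.8 CPM with LPS. Its part in the levels of the CXCR3 ligands was not tested. For the NF-κB subunits the log2 differences of VWF from LPS were 0.32 for Nfkb1 (SE 0.12), -0.46 for Rela (SE 0.07) and -0.67 for Rel (SE 0.09). Each fell short of the fold threshold of 1, so none could be called whatever its p value.

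At 16 h 5 of 13 tested regulators were higher with VWF than in controls, where 4.55% of 7798 genes were called higher. Among them were Nfkb2, Nfkbia and Irf7, and Rel was lower. The log2 fold change was 4.57 for Irf7 (SE 0.31, adjusted p = 2.67e-06), a factor induced by interferon. With LPS 10 of 13 were higher, where 15.3% of 7994 genes were called higher. Against LPS, 10 regulators were lower with VWF, where 14.5% of 7574 genes were called lower. Among them were Rel (-1.94, SE 0.11, adjusted p = 4.13e-07) and Irf1 (-2.61, SE 0.09, adjusted p = 3.02e-08). Cxcr4 was 84.1 ± 28.5 CPM with VWF and 7.16 ± 1.03 CPM with LPS at 16 h, a log2 fold change of 3.53 (SE 0.29, adjusted p = 4.54e-06). Of 21 genes within 100 kb of a member, Zmynd15 was the one called higher with VWF at 3.5 h among 12 tested. The share over all 8200 genes tested was 9.1%.

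The genes most like each member over the 28 cultures were named by the correlation of log2 CPM among 8866 genes, as a description, since groups set most of it. Cxcl1 was closest to Src (r = 0.981) and Nfkbiz (0.972), Cxcl2 to Sqstm1 (0.974) and Dusp16 (0.970), and Cxcl3 to Sh3bp4 (0.971) and Arl5c (0.967). Cxcl9 was closest to Trim30d (0.991) and Iigp1 (0.990), Cxcl10 to Slfn2 (0.991) and Cd69 (0.989), and Cxcl11 to Rsad2 (0.994) and Cmpk2 (0.991). Cxcl16 was closest to Rhog (0.959) and Mmp14 (0.954). Of the 21 genes that lead these lists, 6 also lead them by Spearman correlation.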

How the data were processed

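RNA sequencing libraries of 28 BMDM cultures were analysed. Raw read counts for 54532 Ensembl gene identifiers were deposited, which the authors had obtained from paired reads (150 bases) mapped by STAR to the mouse assembly GRCm38. Neither the annotation release nor the strand setting of the counting is stated there. Gene names, exon lengths and positions were taken from GENCODE M21. From the deposited counts, counts per library size (CPM) with TMM factors, counts per gene length scaled to the library's sum without TMM factors (TPM) and edgeR quasi-likelihood fits were computed (R 4.3.3, edgeR 4.0.16, limma 3.58.1). Fits used only the groups of a comparison, or 4 groups for an interaction. A gene was tested where 1 or more cultures reached 10 TPM and called at a Benjamini-Hochberg adjusted p below 0.05 and an absolute log2 fold change above 1. Nothing says whether cultures came from separate mice, so p-values measure the spread between cultures only. Intervals are exact Poisson intervals at 95% and cover counting error only.

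The members, gene lists and tests were chosen with earlier results of these data known. All 7 members were named, with a part of the other genes of the fixed lists. Of the 3 genes most like each member, the leading ones were named. Same-numbered VWF and LPS cultures at 16 h deviated together (correlation 0.2 to 0.812 over 4 pairs), and a fit with the replicate number as a block was run for all comparisons. The other alternatives were DESeq2 1.42.0, other scaling factors, other filters, no fold threshold, all 28 cultures in 1 fit and leaving out each culture. The fits were tested on simulated data.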

Additional observations from a re-analysis of the deposited data

Results flagged for a closer look

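Among 42 groups of cultures examined in CPM, 7 had 1 culture standing apart from the rest by Dixon's criterion, where chance gives about 1 in 20. On a log2 scale, which was looked at first, there were 4. Cxcl1 was 114.2 CPM in VWF replicate 5 at 3.5 h, 2.226 CPM in control replicate 4 at 16 h and 31.26 CPM in LPS replicate 1 at 16 h. Control replicate 4 at 16 h also stood apart for Cxcl3, at 6.694 CPM. Cxcl11 was 0.01274 CPM in control replicate 1 at 16 h, which is 1 count, and 0.07502 CPM in VWF replicate 5 at 16 h. Cxcl16 was 161.2 CPM in control replicate 5 at 16 h.

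Differences between the 2 times in the effect of an agent passed the interaction test for 13 values, given here as log2 changes from 3.5 h to 16 h. The VWF effect changed by -5.01 for Cxcl1, -4.56 for Cxcl2, -5.50 for Cxcl3 and -4.05 for Cxcl10. The LPS effect changed by -1.27 for Cxcl1, 1.28 for Cxcl10 and 1.09 for Cxcl16. The difference of VWF from LPS changed by -3.75 for Cxcl1, -4.29 for Cxcl2, -3.60 for Cxcl3, -1.58 for Cxcl9, -5.35 for Cxcl10 and -5.73 for Cxcl11.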

How the results depend on the processing

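Of 870 values recomputed without 1 culture, 828 kept their direction and side of the threshold, and of 592 under the other settings 577 did. The 3 members called with VWF against control at 16 h became 5 with edgeR's own expression filter, 5 without a filter and 6 with all 28 cultures in 1 fit. All genes called in that comparison went from 679 to 1362, 1378 and 853 in these fits. Without 1 culture, the members called ranged from 1 to 2 between the control times, with 1 when control replicate 1 or 4 at 3.5 h or replicate 3 at 16 h was left out, and from 1 to 4 for the change of the LPS effect, with 1 when LPS replicate 4 at 16 h was left out. Cxcl16 with VWF against LPS at 3.5 h gave a log2 fold change of 0.29 by library size alone, 0.019 with the replicate block and -0.072 to 0.037 without 1 culture. Between the LPS times Cxcl9 gave -0.0020 by library size alone and -0.036 to 0.19 without 1 culture, Cxcl11 -0.075 to 0.14 and Cxcl16 -0.022 to 0.32. The change of the LPS effect for Cxcl9 was -0.089 with the replicate block and -0.19 to 1.04 without 1 culture. The change of the LPS effect for Cxcl16 was 0.84 (adjusted p = 0.0146) without LPS replicate 4 at 16 h. The cause of these changes was not tested. With the replicate block the VWF and LPS cultures at 16 h gave the same number of called members, 6. In CPM, which is not scaled by length, Cxcl2 was 72.8% of the CXCR2 ligands with VWF and 73.4% with LPS at 3.5 h and 61.7% with VWF and 72.7% with LPS at 16 h, and Cxcl10 was 99.1%, 96.2%, 85.5% (VWF, 16 h) and 85.7% (LPS, 16 h) of the CXCR3 ligands. By Spearman correlation 6 of the 21 most similar genes were shared. Scaling by library size alone moved the share of calls that were higher from 62% to 48.3% for VWF and from 52.1% to 24.1% for LPS against control at 3.5 h, and from 41.2% to 69.8% for VWF against LPS. At 16 h it moved from 55.2% to 25.2% for LPS against control and from 43.3% to 72.1% for VWF against LPS, and the change of that difference with time from 42.8% to 56.8%; the median log2 fold change of all genes then lay between -0.59 and 0.46. Without the fold threshold it moved at 3.5 h from 62% to 51.2% for VWF against control and from 41.2% to 52.3% for VWF against LPS, which turns the majority. The genes called per comparison, 679 to 2301, became 2163 to 5384 without the fold threshold, 1362 to 4116 with edgeR's own filter and 1378 to 4542 without a filter. The replicate block changed no call of a member apart from Cxcl3 in the change of the LPS effect (adjusted p = 0.0329). Levels under 10 TPM were not tested, which limits Cxcl1, Cxcl9 and Cxcl11 with VWF at 16 h.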
